A study of Mus musculus with 8 samples.

Results

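Interferon-stimulated genes are the genes that cells switch on when interferons, the secreted alarm proteins of viral infection, reach their receptors. The group described here holds 50 named mouse genes, found by symbol among the 23235 symbols of the deposited expression table. Levels are in FPKM, which divides a transcript's fragments by its length and by the library's depth, summed over each gene's transcripts, 65 in all. Of the 50 genes, 43 had at least 1 FPKM in at least 2 libraries and entered the test, among 12025 genes tested. They were divided by role into 9 groups.

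RNA came from cultured mouse embryonic fibroblasts, connective tissue cells of strain C57BL/6, in 4 groups of 2 libraries. TAFH-deleted rescue cells are Taf4 -/- cells that carry a human TAF4 transgene without its TAFH domain, and wild-type rescue cells are Taf4 -/- cells with a human wild-type TAF4 transgene. Each rescue library is a separate clone. Knockout cells are Taf4 -/- with no transgene, and control cells are Taf4 loxp/-, with 1 floxed and 1 null allele, so every group lacks at least 1 Taf4 allele. Another label field calls the control cells wild type. Taf4 encodes a subunit of TFIID, the factor that recruits RNA polymerase II to promoters, and its TAFH domain binds other proteins. The series title concerns TAF4 as a coactivator for E proteins, a family of E-box-binding transcription factors. No interferon or virus treatment is named in the labels, so the levels below are those of unstimulated cultures as far as the labels tell.

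Interferons bind paired receptors, whose JAK kinases phosphorylate STAT proteins. Type I and type III interferons activate a complex that holds STAT2 and IRF9 and binds the interferon-stimulated response element (ISRE). Interferon gamma acts through the gamma-activated sequence (GAS). Fibroblasts respond to type I interferons and to interferon gamma and keep many of these genes at a basal level without infection. The encoded proteins sense viral nucleic acids, block entry, replication and release of viruses, attack vacuoles that hold microbes, and switch the response off again.

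Some facts of the libraries bear on every value. The steps between low FPKM imply between 14266760 and 17304631 fragments per library, and 1 fragment on a transcript of 2 kilobases was worth between 0.0322 and 0.0390 FPKM. Both knockout libraries implied the same total of 14809769 fragments. This pair agreed more closely than independent reads would (chi-square per gene 0.614 ± 0.034, SE, where 1 is the value for independent reads), and so did the pair of control libraries (0.737 ± 0.0345, SE). Each of these pairs was averaged and counted as 1 sample, whereas the pairs of rescue clones differed by more (2.45 ± 0.105 for TAFH-deleted and 1.57 ± 0.0653 for wild-type rescue, SE). Knockout and control values therefore carry no replicate error, and the spread used in the tests comes from the rescue clones alone. Whether the libraries of the knockout and control pairs stem from different cultures is not stated. The p-values reflect no more than the spread between the rescue clones of each form. Each clone has 1 library, so differences between clones and technical differences between libraries cannot be told apart in this spread. Taf4a, the mouse Taf4 gene, was at 14.7 and 19.2 FPKM in TAFH-deleted clones, 14.5 and 15.0 FPKM in wild-type rescue clones, 12.5 FPKM in knockout and 11.3 FPKM in control. This level does not check the labels, since they do not name the deleted exons and human TAF4 reads could map to Taf4a. Knockout here means the libraries so labelled. In every sample Col1a1 and Vim, fibroblast genes, were above 100 FPKM, while Thy1 was at most 0.0773 FPKM. Dcn, another fibroblast gene, was at 0 and 0.0387 FPKM in TAFH-deleted clones, 19.1 and 11.6 FPKM in wild-type rescue clones, 0.642 FPKM in knockout and 24.2 FPKM in control. Of the 10 macrophage and leukocyte markers, Ptprc, Emr1, Itgam, Aif1 and Fcgr1 stayed under 1 FPKM in every library, the highest at 0.173 FPKM. The other 5 were detected and varied between libraries, Cd74 between 0.814 and 29.5 FPKM, Cd14 between 4.19 and 12.6 FPKM, Lyz2 between 0 and 7.76 FPKM, Cd68 between 1.046 and 3.45 FPKM and Csf1r between 0.134 and 1.09 FPKM. The 6 endothelial and 6 epithelial markers all stayed under 1 FPKM.

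The promoters of 39 of the 50 genes were at hand in RefSeq, as windows from 250 bases before to 50 bases after the start of transcription on GRCm38.p6. They were searched for the core of the ISRE, written here as GAAA, any 2 bases, GAAA, on both strands. The core was present in 20 of the 39 genes (51.3%), against 3.99% of all 27025 genes with a window. The GAS, TTC and GAA with any 3 bases between, was present in 10 (25.6%), against 9.55% of all genes. The E-box CANNTG, the site that E proteins bind, was present in 28 (71.8%), against 75% of all genes. GAS and E-box matches may overlap with ISRE matches, and a match describes letters, not binding. The 7 stretches below run from 150 bases before to 30 bases after the start, 5′ to 3′ on the gene's strand, and capitals mark ISRE cores. They are shown because Isg15, Bst2, Ifit1, Ifitm1, Gbp2, Lgals9 and Lgals3bp mark the different patterns described further on.
Isg15: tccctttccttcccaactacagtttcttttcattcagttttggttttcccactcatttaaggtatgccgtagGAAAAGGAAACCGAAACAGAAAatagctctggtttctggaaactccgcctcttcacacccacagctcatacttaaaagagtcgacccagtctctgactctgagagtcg
Bst2: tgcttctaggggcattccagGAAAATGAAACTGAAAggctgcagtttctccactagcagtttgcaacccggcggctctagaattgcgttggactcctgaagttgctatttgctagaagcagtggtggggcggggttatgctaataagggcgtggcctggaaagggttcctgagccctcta
Ifit1: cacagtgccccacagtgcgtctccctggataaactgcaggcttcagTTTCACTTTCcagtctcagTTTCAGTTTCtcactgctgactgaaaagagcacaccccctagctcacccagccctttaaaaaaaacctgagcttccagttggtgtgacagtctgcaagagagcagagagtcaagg
Ifitm1: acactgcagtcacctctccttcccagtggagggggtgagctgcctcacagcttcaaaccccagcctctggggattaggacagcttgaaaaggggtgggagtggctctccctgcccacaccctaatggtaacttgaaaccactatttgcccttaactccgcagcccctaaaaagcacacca
Gbp2: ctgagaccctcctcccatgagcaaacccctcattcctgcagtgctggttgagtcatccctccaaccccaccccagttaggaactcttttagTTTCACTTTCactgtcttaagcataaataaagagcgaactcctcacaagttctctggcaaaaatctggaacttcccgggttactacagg
Lgals9: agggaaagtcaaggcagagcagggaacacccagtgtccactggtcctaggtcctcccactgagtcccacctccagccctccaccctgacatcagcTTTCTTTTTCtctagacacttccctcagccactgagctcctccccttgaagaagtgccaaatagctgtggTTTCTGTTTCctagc
Lgals3bp: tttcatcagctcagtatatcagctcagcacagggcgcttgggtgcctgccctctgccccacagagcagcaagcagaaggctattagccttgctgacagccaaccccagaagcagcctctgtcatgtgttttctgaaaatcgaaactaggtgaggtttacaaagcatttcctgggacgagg
On GRCm38.p6 these stretches lie at chr4:156200789-156200968, minus strand, for Isg15, at chr8:71537443-71537622, minus strand, for Bst2, and at chr19:34640739-34640918, plus strand, for Ifit1. The others lie at chr7:140967926-140968105, plus strand, for Ifitm1, at chr3:142620513-142620692, plus strand, for Gbp2, at chr11:78984895-78985074, minus strand, for Lgals9, and at chr11:118401930-118402109, minus strand, for Lgals3bp. Isg15 held 3 overlapping cores, of which the first began at -78 and the last at -66, Bst2 held 2, of which the first began at -130, and Ifit1 held 2, of which the first began at -104. Gbp2 held 1 at -59 and Lgals9 held 2, at -55 and at 16 after the start. Ifitm1 and Lgals3bp held none in this stretch. All other coordinates in the text are those of the deposited table, on mm9.

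As a group the interferon-stimulated genes stood highest in knockout and lowest in TAFH-deleted clone 2. Their summed level was 816 and 490 FPKM in TAFH-deleted clones, 858 and 784 FPKM in wild-type rescue clones, 945 FPKM in knockout and 647 FPKM in control. The TAFH-deleted clones lay on either side of control, whereas both wild-type rescue clones lay between knockout and control. Under limma's moderated test on log2(FPKM + 1), adjusted by Benjamini-Hochberg over 12025 genes, 1 of the 43 passed the threshold of 0.05 in any of 6 comparisons. That gene was Zbp1, which fell in TAFH-deleted against wild-type rescue. All other differences are given as values that did not pass.

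**Figure D1:**
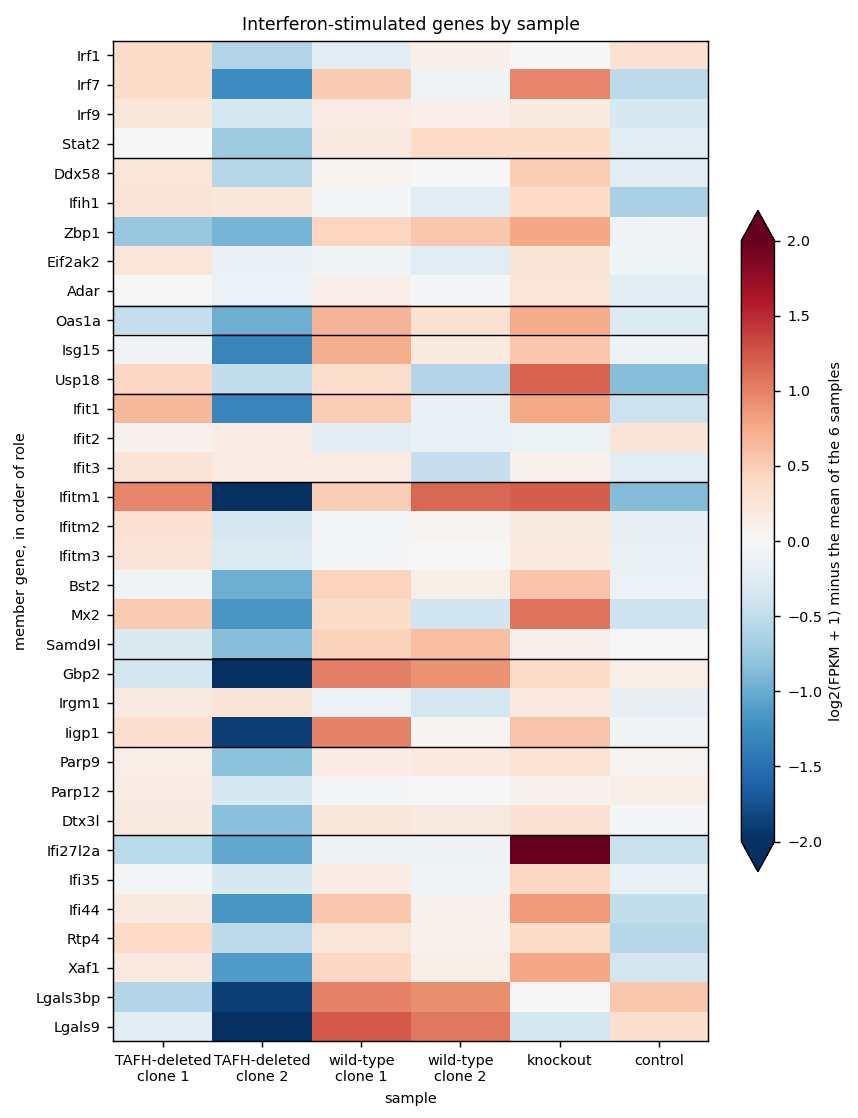
Each row is 1 of 34 interferon-stimulated genes and each column 1 of the 6 samples; colour is log2(FPKM + 1) minus the gene's mean over the 6 samples, cut at 2 either way, and lines divide the role groups. Most rows are red in knockout and blue in TAFH-deleted clone 2 and in control, and Ifit2, Lgals3bp and Lgals9 differ from that order.

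The 4 transcription factors of the group include the DNA-binding parts of the interferon response itself. Irf7 (chr7:148449081-148452323), which drives type I interferon genes, was at 25.9 and 7.73 FPKM in TAFH-deleted clones, 28.6 and 18.9 FPKM in wild-type rescue clones, 39.9 FPKM in knockout and 13.5 FPKM in control. Knockout was highest, and TAFH-deleted clone 2 was the only sample below control. Stat2, whose product acts in a complex with IRF9, was at 29.8 and 18.0 FPKM in TAFH-deleted clones, 34.2 and 40.0 FPKM in wild-type rescue clones, 39.0 FPKM in knockout and 25.4 FPKM in control. Both TAFH-deleted clones lay below both wild-type rescue clones. Irf9 was at 41.6 and 27.4 FPKM in TAFH-deleted clones, 39.5 and 37.9 FPKM in wild-type rescue clones, 39.9 FPKM in knockout and 28.1 FPKM in control, so that TAFH-deleted clone 2 stood beside control and the other samples together above them. Irf1, an immediate target of interferon gamma, had another order, with 29.0 and 14.4 FPKM in TAFH-deleted clones, 19.1 and 24.0 FPKM in wild-type rescue clones, 22.4 FPKM in knockout and 27.7 FPKM in control. The TAFH-deleted clones were the highest and the lowest of the 6 samples for Irf1.

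Sensors of foreign nucleic acids and enzymes that act on double-stranded RNA made up 6 genes. Ddx58, which encodes the RNA sensor RIG-I, was at 27.2 and 15.1 FPKM in TAFH-deleted clones, 23.8 and 22.7 FPKM in wild-type rescue clones, 32.5 FPKM in knockout and 19.4 FPKM in control. Ifih1 (chr2:62433849-62484312), which encodes the sensor of long double-stranded RNA MDA5, was at 19.6 and 19.2 FPKM in TAFH-deleted clones, 16.0 and 13.8 FPKM in wild-type rescue clones, 21.7 FPKM in knockout and 9.95 FPKM in control. Control was the lowest sample for Ifih1, and the TAFH-deleted clones, close to each other, lay above both wild-type rescue clones. Zbp1 (chr2:173032113-173044423), which encodes a sensor of Z-form nucleic acids that can start necroptosis, was at 0.485 and 0.319 FPKM in TAFH-deleted clones, 2.38 and 2.62 FPKM in wild-type rescue clones, 3.30 FPKM in knockout and 1.38 FPKM in control. Both TAFH-deleted clones lay below every other sample. Eif2ak2, the kinase PKR that stops translation on sensing double-stranded RNA, was at 37.0 and 28.3 FPKM in TAFH-deleted clones, 29.9 and 26.9 FPKM in wild-type rescue clones, 37.5 FPKM in knockout and 29.2 FPKM in control. Adar, which edits adenosine to inosine in double-stranded RNA, was at 21.1 and 19.1 FPKM in TAFH-deleted clones, 22.5 and 20.6 FPKM in wild-type rescue clones, 24.9 FPKM in knockout and 17.8 FPKM in control. Knockout was the highest and control the lowest sample for Adar. Dhx58, the regulator LGP2, stayed between 0.734 and 2.12 FPKM.

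The active enzymes of the OAS family make oligoadenylates that activate RNase L, though not every member does so. Of the 6 family genes listed here, 3 were tested. Oas1a was at 2.66 and 1.57 FPKM in TAFH-deleted clones, 7.17 and 5.27 FPKM in wild-type rescue clones, 7.46 FPKM in knockout and 3.18 FPKM in control. The TAFH-deleted clones were the only samples below control. Oasl1 stayed between 0.246 and 1.22 FPKM and Oasl2 between 0.210 and 2.74 FPKM. Oas1g, Oas2 and Oas3 stayed under 1 FPKM in every library, with 0.884 FPKM for Oas1g the highest value. Oas1a and Oas1g are near-identical copies, and how the authors' counting divides shared reads between them is uncertain.

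In the ISG15 pathway, which attaches a ubiquitin-like protein to newly made proteins, the modifier and its protease differed in order. Isg15 (chr4:155573532-155574927), the modifier, was at 22.5 and 8.93 FPKM in TAFH-deleted clones, 40.0 and 27.3 FPKM in wild-type rescue clones, 35.5 FPKM in knockout and 22.0 FPKM in control. Both TAFH-deleted clones lay below both wild-type rescue clones, and clone 2 below control. Usp18 (chr6:121195923-121220935), the protease that removes ISG15 and also dampens the type I receptor, was at 14.2 and 7.04 FPKM in TAFH-deleted clones, 13.4 and 6.57 FPKM in wild-type rescue clones, 24.7 FPKM in knockout and 5.26 FPKM in control. Every rescue clone lay between knockout and control for Usp18, and the clones of the rescue forms overlapped. Herc6, the ISG15 ligase of the mouse, stayed between 2.00 and 3.88 FPKM. Trim25, a ubiquitin ligase that acts on RIG-I, was listed at 0 in every library but wild-type rescue clone 1, where it was at 0.0109 FPKM. A low value in this table can stand for an abundant transcript, since Gapdh, a gene that every cell uses, was listed between 0.0682 and 0.599 FPKM.

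The IFIT family binds viral RNA ends and blocks their translation, and its 3 genes lie near each other on chromosome 19. Ifit1 (chr19:34715378-34724499) was at 31.0 and 7.16 FPKM in TAFH-deleted clones, 27.7 and 17.7 FPKM in wild-type rescue clones, 33.5 FPKM in knockout and 14.1 FPKM in control. Ifit2 (chr19:34625183-34651024) was at 22.2 and 23.4 FPKM in TAFH-deleted clones, 18.0 and 19.1 FPKM in wild-type rescue clones, 19.3 FPKM in knockout and 25.5 FPKM in control. Ifit3 was at 8.44 and 7.79 FPKM in TAFH-deleted clones, 7.84 and 4.71 FPKM in wild-type rescue clones, 7.38 FPKM in knockout and 5.71 FPKM in control. These neighbours thus had different orders: knockout and TAFH-deleted clone 1 were highest for Ifit1 and control for Ifit2, and for Ifit1 alone TAFH-deleted clone 2 was the lowest sample. Ifit3 has near-identical copies in the mouse, so its level is uncertain.

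Membrane and nucleotide restriction factors block viral entry, release or genome synthesis. Ifitm1 (chr7:148153327-148155726), which hinders fusion of viruses with the cell membrane, was at 18.3 and 0.261 FPKM in TAFH-deleted clones, 12.8 and 20.8 FPKM in wild-type rescue clones, 21.6 FPKM in knockout and 4.40 FPKM in control. TAFH-deleted clone 2 stood far below all other samples. It was also lowest for the neighbouring genes, though close to control. Ifitm2 was at 103 and 66.9 FPKM in TAFH-deleted clones, 83.4 and 88.4 FPKM in wild-type rescue clones, 96.1 FPKM in knockout and 75.7 FPKM in control. Ifitm3 was at 140 and 96.6 FPKM in TAFH-deleted clones, 114 and 115 FPKM in wild-type rescue clones, 134 FPKM in knockout and 105 FPKM in control. Ifitm2 and Ifitm3 were the most abundant of the 50 genes, with as much as 50.4% and 68.4% of their possible read starts in use. This share is the implied fragments over the transcript's positions on both strands. It reached 95.2% for Col1a1, and 15 of the 50 genes reached 20%. If each start counted only once, differences of such genes and of the summed level would be understated, which was not tested. Bst2 (tetherin), which holds budding viruses at the cell surface, was at 37.3 and 19.1 FPKM in TAFH-deleted clones, 53.0 and 42.7 FPKM in wild-type rescue clones, 57.9 FPKM in knockout and 35.6 FPKM in control. As for Isg15, both TAFH-deleted clones lay below both wild-type rescue clones, and clone 2 below control. Mx2, a dynamin-like GTPase, was at 4.01 and 0.583 FPKM in TAFH-deleted clones, 3.57 and 1.68 FPKM in wild-type rescue clones, 6.52 FPKM in knockout and 1.65 FPKM in control. The control signal of Mx2 was listed mostly under a coding transcript, and that of the other samples under a non-coding one. Only the sum is used here, and it does not give the level of the coding transcript. Samd9l, which restricts poxviruses, was at 5.21 and 3.21 FPKM in TAFH-deleted clones, 9.52 and 10.6 FPKM in wild-type rescue clones, 7.13 FPKM in knockout and 6.56 FPKM in control. For Samd9l both wild-type rescue clones were above knockout and both TAFH-deleted clones below it. Mx1 stayed between 0.0238 and 1.25 FPKM, and Rsad2 (viperin) and its neighbour Cmpk2 at most at 0.245 and 0.0705 FPKM.

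The interferon-inducible GTPases disrupt vacuoles that hold bacteria or parasites and are known as strong targets of interferon gamma. Gbp2 (chr3:142283626-142300972) was at 2.46 and 0.0821 FPKM in TAFH-deleted clones, 7.99 and 7.36 FPKM in wild-type rescue clones, 4.79 FPKM in knockout and 3.86 FPKM in control. Iigp1 was at 4.10 and 0.0901 FPKM in TAFH-deleted clones, 7.02 and 3.13 FPKM in wild-type rescue clones, 4.97 FPKM in knockout and 2.87 FPKM in control. TAFH-deleted clone 2 was at the level of a few fragments for both genes. Irgm1, a regulator of the other immunity-related GTPases, was at 28.5 and 30.2 FPKM in TAFH-deleted clones, 23.2 and 19.4 FPKM in wild-type rescue clones, 29.0 FPKM in knockout and 22.4 FPKM in control. The TAFH-deleted clones lay above both wild-type rescue clones for Irgm1, the opposite of Gbp2. Gbp3, Igtp and Irgm2 had their lowest value, between 0.101 and 0.391 FPKM, in TAFH-deleted clone 2, and their highest values were 4.62, 1.82 and 4.37 FPKM. Members of these families are alike in sequence, and their shared reads are a source of uncertainty.

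PARP9 and its partner DTX3L form a complex that adds ubiquitin and ADP-ribose to proteins, and PARP12 and PARP14 are ADP-ribosyltransferases. Parp9 was at 10.4 and 4.89 FPKM in TAFH-deleted clones, 10.6 and 10.9 FPKM in wild-type rescue clones, 11.5 FPKM in knockout and 9.77 FPKM in control. Dtx3l was at 4.84 and 1.89 FPKM in TAFH-deleted clones, 5.01 and 4.82 FPKM in wild-type rescue clones, 5.32 FPKM in knockout and 4.09 FPKM in control. In both, TAFH-deleted clone 2 was low and the other 5 samples were close. The table gives the pair the same locus on chromosome 16, so overlapping reads cannot be told apart without strand. Parp12 was at 9.11 and 6.19 FPKM in TAFH-deleted clones, 7.73 and 8.0 FPKM in wild-type rescue clones, 8.46 FPKM in knockout and 8.84 FPKM in control, and Parp14 stayed between 0.341 and 2.10 FPKM.

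The remaining 8 genes have varied or less known roles. Ifi27l2a (chr12:104680376-104681890), a small interferon-induced membrane protein, was at 1.08 and 0.476 FPKM in TAFH-deleted clones, 1.81 and 1.83 FPKM in wild-type rescue clones, 12.9 FPKM in knockout and 1.23 FPKM in control. Knockout stood alone, and all 4 rescue clones lay near control. The Ifi27l2a transcript is 463 bases long, so its values outside knockout rest on few fragments and its folds are uncertain. Ifi44 was at 13.5 and 4.69 FPKM in TAFH-deleted clones, 17.7 and 12.6 FPKM in wild-type rescue clones, 22.2 FPKM in knockout and 8.10 FPKM in control. Xaf1, which promotes apoptosis, was at 17.5 and 6.33 FPKM in TAFH-deleted clones, 20.6 and 16.5 FPKM in wild-type rescue clones, 26.5 FPKM in knockout and 11.5 FPKM in control. In Ifi44 and Xaf1 the order was the same as in Irf7: knockout highest, control low and TAFH-deleted clone 2 lowest. Rtp4, a chaperone of membrane receptors, was at 19.2 and 9.63 FPKM in TAFH-deleted clones, 17.2 and 15.2 FPKM in wild-type rescue clones, 18.8 FPKM in knockout and 9.36 FPKM in control. Ifi35 was at 21.4 and 17.2 FPKM in TAFH-deleted clones, 24.2 and 20.7 FPKM in wild-type rescue clones, 29.3 FPKM in knockout and 19.6 FPKM in control. Control and TAFH-deleted clone 2 were the lowest samples for both. Lgals3bp (chr11:118254065-118263245), a secreted glycoprotein that binds galectins, was at 19.4 and 7.37 FPKM in TAFH-deleted clones, 60.4 and 57.7 FPKM in wild-type rescue clones, 29.7 FPKM in knockout and 43.7 FPKM in control. Lgals9 (chr11:78776480-78798426), which encodes a galectin, was at 9.79 and 2.01 FPKM in TAFH-deleted clones, 28.1 and 24.8 FPKM in wild-type rescue clones, 8.75 FPKM in knockout and 14.7 FPKM in control. These genes had an order of their own, with wild-type rescue highest, control next and knockout and TAFH-deleted rescue low. Sp100, a nuclear body protein, stayed at or under 0.121 FPKM.

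**Figure D2:**
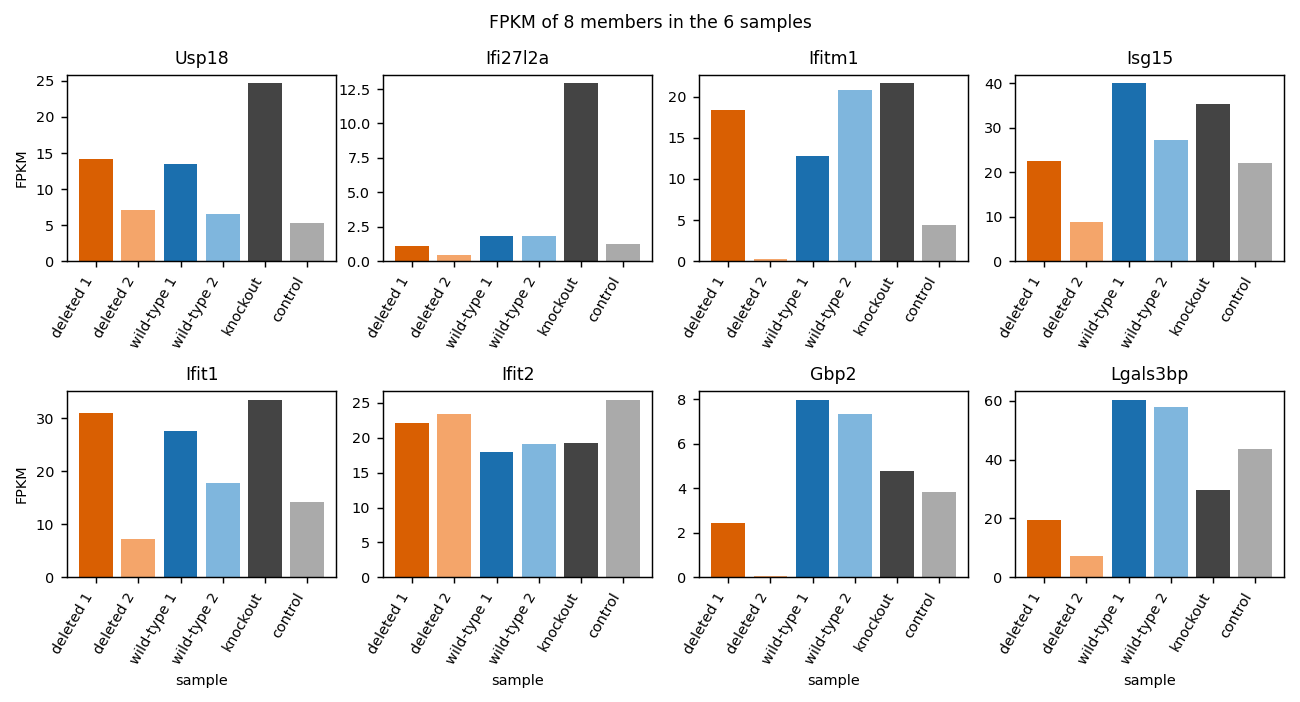
Bars are FPKM of 8 interferon-stimulated genes in each sample: TAFH-deleted clones 1 and 2, wild-type rescue clones 1 and 2, knockout and control, the last 2 each the mean of a pair of libraries that differed by less than sampling noise. Usp18 and Ifi27l2a are highest in knockout, Ifitm1 and Gbp2 are nearly absent in TAFH-deleted clone 2, Ifit2 is highest in control and Lgals3bp in the wild-type rescue clones.

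The first comparison asks how loss of Taf4 relates to the level of these genes. In knockout 37 of the 43 tested genes were higher than in control and 6 were lower, against 45.1% of all tested genes that were higher. The median log2 difference was 0.61, against -0.03 over all tested genes. Of the 43, 11 were higher by at least 1 on the log2 scale, against 0.798% of all tested genes, and 0 were lower by as much, against 5.76%. These 11 were Irf7, Ifih1, Oas1a, Usp18, Ifit1, Ifitm1, Mx2, Irgm2, Ifi27l2a, Ifi44 and Xaf1. Of the 43, Oasl1, Mx1 and Igtp passed the filter only with the knockout libraries counted. This tilts the counts of the 43 toward higher values in knockout, here and in the comparisons with rescue. Without the filter, over all 50 genes, 41 were higher and 8 lower, with a median of 0.47. The medians of the role groups ran from 0.27 for PARP and DTX3L to 0.94 for the OAS family and for the genes of other roles.

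The largest differences of named genes in knockout against control were those of Ifi27l2a (10.5-fold in FPKM, log2 difference 2.64 ± 0.33, SE, adjusted p = 0.16), Ifitm1 (4.91-fold, 2.07 ± 1.97, adjusted p = 0.761) and Usp18 (4.68-fold, 2.03 ± 0.67, adjusted p = 0.511) in limma. The control level of Ifi27l2a rests on few fragments, so its fold is uncertain. Lower in knockout were Lgals9 (-0.69 ± 0.93, adjusted p = 0.821), Lgals3bp (-0.54 ± 0.64, adjusted p = 0.801) and Ifit2 (-0.39 ± 0.15, adjusted p = 0.556). limma called 0 of the 43 here, and 0 of all tested genes (0%), while 4 of the 43 and 1108 of all tested genes had an unadjusted p under 0.05. With either TAFH-deleted clone left out, the spread came from the wild-type clones alone, and the same 22 of the 43 were called, 20 higher and Lgals3bp and Lgals9 lower. All tested genes were then called at 22.6% without clone 1 and at 22.1% without clone 2. In the authors' deposited table, whose Cuffdiff test takes the library pairs as replicates, 37 of 52 tested transcripts of these genes (71.2%) were significant in this comparison, against 53.8% of all tested transcripts. That test rests on library pairs that did not differ beyond sampling noise.

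**Figure D3:**
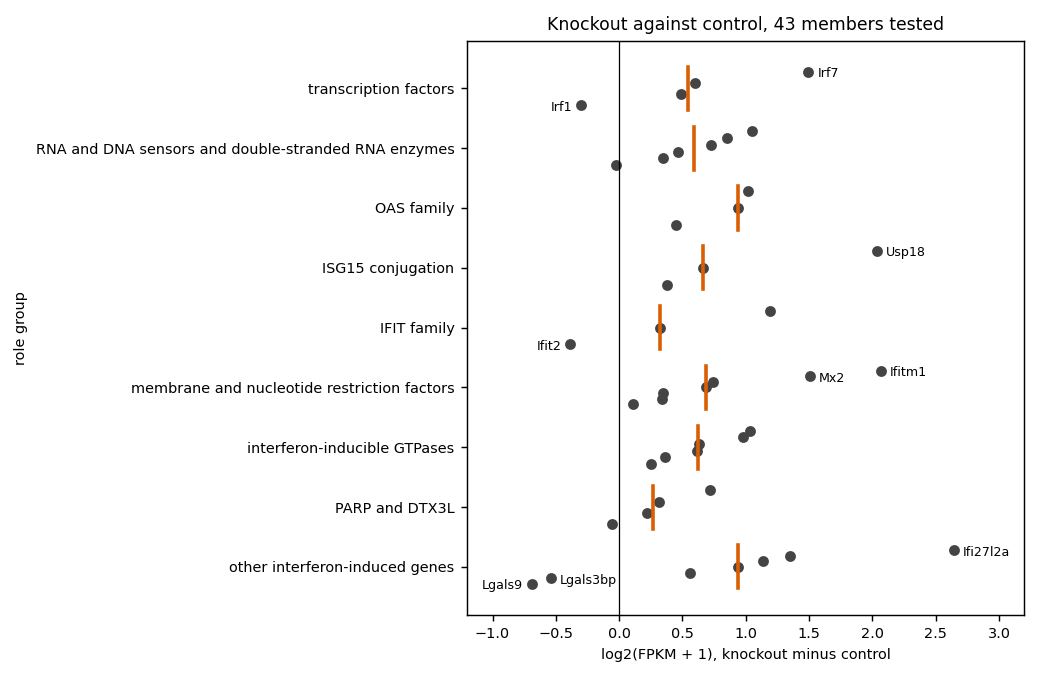
Each point is 1 of the 43 tested genes, at its log2(FPKM + 1) in knockout minus control, in rows by role group; orange lines are the medians of the groups. Points lie to the right of 0 for 37 genes, Ifi27l2a farthest at 2.64, and Irf1, Ifit2, Lgals3bp and Lgals9 are among the 6 to the left.

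Wild-type rescue against knockout asks whether returning full-length TAF4 goes with lower levels of genes that were higher in knockout. Clone 1 was below knockout for 33 of the 43 genes (54.7% of all tested genes) and clone 2 for 35 (54.5%), with medians of -0.20 and -0.43 on the log2 scale. Clone 1 was above control for 39 of the 43 (43.7% of all tested genes) and clone 2 for 35 (44%), with medians of 0.51 and 0.27. Both clones thus stood between knockout and control by their medians, with wild-type clone 2 below clone 1 for 31 genes (49.1% of all tested genes). The lowest of the named genes against knockout were Ifi27l2a (-2.30 ± 0.29, SE, adjusted p = 0.207 in limma), Usp18 (-1.30 ± 0.58, adjusted p = 0.44) and Mx2 (-1.10 ± 0.80, adjusted p = 0.611). The highest were Lgals9 (1.49 ± 0.80, adjusted p = 0.5), Lgals3bp (0.97 ± 0.56, adjusted p = 0.526) and Gbp2 (0.58 ± 0.74, adjusted p = 0.79). Neither this comparison nor wild-type rescue against control had a call by limma, among the 43 or among all tested genes (0% in both). At an unadjusted p under 0.05 there were 2 of the 43 and 1602 of all tested genes against knockout, and 2 of the 43 and 1340 of all tested genes against control. Against control, Ifitm1 differed by 1.68 ± 1.71, Gbp2 by 0.84 ± 0.74 and Ifi44 by 0.81 ± 0.63, and on the low side Ifit2 by -0.44 ± 0.13, Irf1 by -0.36 ± 0.45 and Parp12 by -0.15 ± 0.28 on the log2 scale (SE). Between wild-type rescue and knockout, 16 of 50 tested transcripts (32%) were significant in the authors' deposited table, against 25.8% of all tested transcripts.

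TAFH-deleted rescue against knockout asks the same of TAF4 without its TAFH domain, and here the clones differed from each other. Clone 1 was below knockout for 33 of the 43 genes (44.9% of all tested genes), with a median of -0.23. It was lower by at least 1 on the log2 scale for Zbp1, Oas1a and Ifi27l2a, 3 genes (2.2% of all tested genes). Clone 2 was below knockout for 38 genes (46.1%), with a median of -1.13, and lower by at least 1 for 26 (4.94%). Against control, 8 genes were lower in clone 1 (52.3% of all tested genes) and 35 in clone 2 (48.4%), with medians of 0.23 and -0.59. Clone 2 was below clone 1 for 40 of the 43 genes (48.8% of all tested genes), and by at least 1 for 15 (3.59%). These 15 were Irf7, Oasl2, Isg15, Ifit1, Ifitm1, Mx1, Mx2, Gbp2, Gbp3, Iigp1, Dtx3l, Ifi44, Xaf1, Lgals3bp and Lgals9. The genes not lower in clone 2 were Herc6, Ifit2 and Irgm1.

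Against knockout, the lowest of the named genes in TAFH-deleted rescue were Ifi27l2a (-2.99 ± 0.29, SE, adjusted p = 0.416 in limma), Ifitm1 (-2.20 ± 1.71, adjusted p = 0.817) and Zbp1 (-1.62 ± 0.20, adjusted p = 0.417). Above knockout, though slightly, were Ifit2 (0.23 ± 0.13, adjusted p = 0.793), Ifit3 (0.12 ± 0.34, adjusted p = 0.933) and Irgm1 (0.02 ± 0.16, adjusted p = 0.979). limma called 0 of the 43 and 0 of all tested genes (0%), with an unadjusted p under 0.05 for 4 of the 43 and 789 of all. Without clone 1, 34 of the 43 were called, all of them lower, against 33.4% of all tested genes. Without clone 2, Ifi27l2a, Lgals3bp and Zbp1 were called, against 3.81%. The authors' deposited table has 1 significant transcript of 52 (1.92%) between TAFH-deleted rescue and knockout, that of Ifi27l2a, against 0.957% of all tested transcripts. Ifi27l2a was thus below knockout in each of the 4 rescue clones, at 0.0839 and 0.0369 of its level in the TAFH-deleted clones and 0.14 and 0.142 of it in the wild-type rescue clones. These ratios rest on few fragments in the rescue clones.

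**Figure D4:**
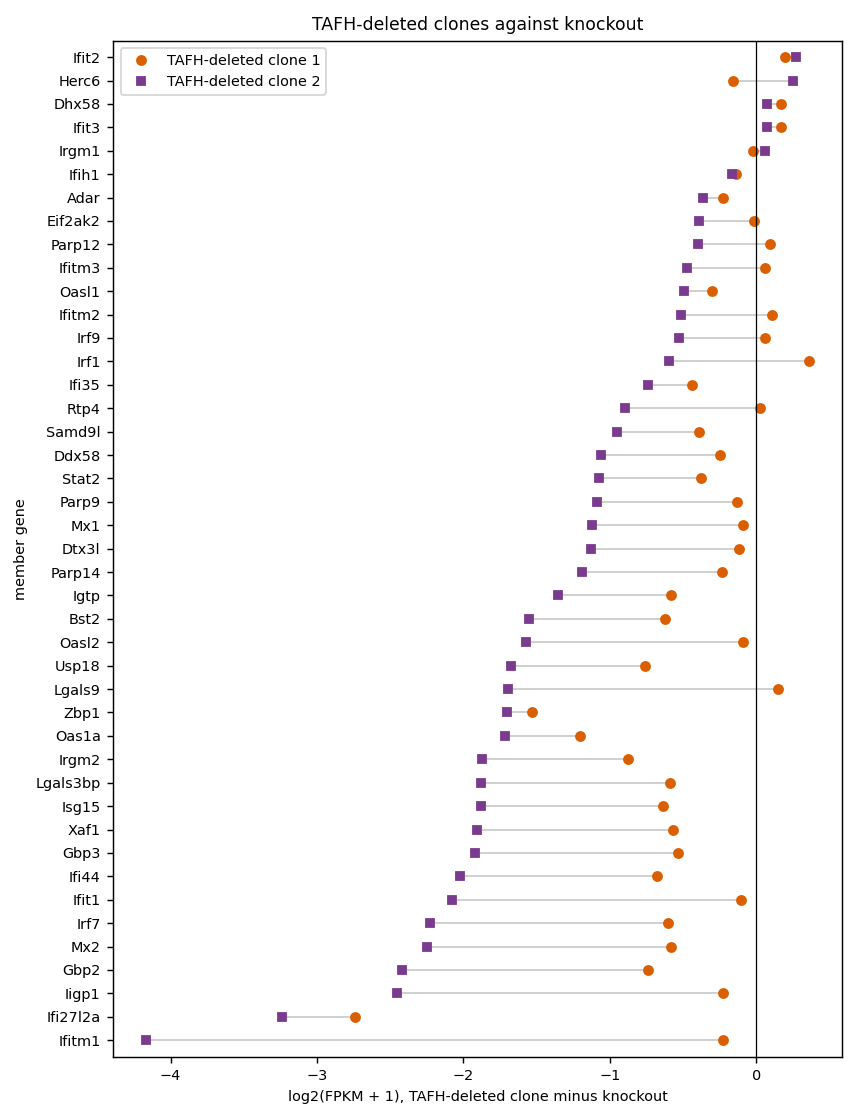
Each row is 1 of the 43 tested genes, with log2(FPKM + 1) in TAFH-deleted clone 1 (circles) and clone 2 (squares) minus knockout, in the order of clone 2. Squares lie left of circles for 40 genes, by at least 1 for 15, and Ifitm1 has the longest line, from -0.23 in clone 1 to -4.17 in clone 2.

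Other values also differed between the TAFH-deleted clones, not all in the direction of the interferon-stimulated genes. Cd74, an antigen presentation gene and a target of interferon gamma, was at 29.5 and 0.814 FPKM in TAFH-deleted clones, 8.01 and 9.97 FPKM in wild-type rescue clones, 23.9 FPKM in knockout and 21.6 FPKM in control. The summed level of the 10 macrophage and leukocyte markers was 37.3 and 9.58 FPKM in TAFH-deleted clones, 31.3 and 26.7 FPKM in wild-type rescue clones, 38.2 FPKM in knockout and 37.1 FPKM in control, with Ptprc, Emr1 and Itgam at or near 0 throughout. Within this list Cd14, at 6.45 and 4.19 FPKM, and Lyz2, at 0.0822 and 0 FPKM, were lower in TAFH-deleted clone 2 than in clone 1, as Cd74 was. Cd68, at 1.046 and 3.45 FPKM, and Csf1r, at 0.134 and 1.09 FPKM, were higher in clone 2. The 10 fibroblast markers summed to 665 and 568 FPKM in TAFH-deleted clones, 718 and 715 FPKM in wild-type rescue clones, 699 FPKM in knockout and 690 FPKM in control. The 8 receptor and kinase genes of the pathway summed to 329 and 257 FPKM in TAFH-deleted clones, 331 and 330.5 FPKM in wild-type rescue clones, 342 FPKM in knockout and 301.5 FPKM in control. The part of these differences in the result was not tested. In bulk RNA, fewer cells with a transcript and less transcript per cell cannot be told apart.

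The comparison of TAFH-deleted with wild-type rescue has 2 clones on each side and asks what the TAFH domain adds. Zbp1 fell, with a mean of 0.402 ± 0.117 FPKM in TAFH-deleted rescue and 2.50 ± 0.164 FPKM in wild-type rescue (SD, n = 2 each), a log2 difference of -1.32 ± 0.17 (SE, adjusted p = 0.0497 in limma). It was 1 call among 43, against 2.62% of all tested genes (315 genes), and 9 of the 43 and 3465 of all tested genes had an unadjusted p under 0.05. The call sits at the threshold and was lost with either wild-type rescue clone left out (adjusted p = 0.561 without clone 1 and 0.467 without clone 2), while the log2 difference stayed between -1.41 and -1.24 with any library left out. The Zbp1 values are sums over transcripts of unlike length, all low. The transcript of 781 bases was at 0.193 and 0.0119 FPKM in TAFH-deleted clones and 1.73 and 2.05 FPKM in wild-type rescue clones. The transcript of 1987 bases fell less, with 0.291 and 0.307 FPKM against 0.657 and 0.563 FPKM. Named genes with larger differences that did not pass were Lgals9 (-2.27 ± 0.66, adjusted p = 0.124), Lgals3bp (-2.20 ± 0.45, adjusted p = 0.0801) and Gbp2 (-2.16 ± 0.61, adjusted p = 0.118). On the high side stood Irgm1 (0.45 ± 0.13, adjusted p = 0.124), Ifih1 (0.37 ± 0.14, adjusted p = 0.181) and Ifit3 (0.36 ± 0.27, adjusted p = 0.436).

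Both TAFH-deleted clones lay below both wild-type rescue clones for 14 of the 43 genes, against 26.4% of all tested genes. They were Stat2, Dhx58, Zbp1, Oas1a, Isg15, Bst2, Samd9l, Gbp2, Gbp3, Irgm2, Parp9, Ifi27l2a, Lgals3bp and Lgals9. Dhx58 passed the filter only with the wild-type rescue libraries counted. Its presence tilts this count, and the other counts that involve wild-type rescue, toward higher values in wild-type rescue. Both lay above for 4, Ifih1, Herc6, Ifit2 and Irgm1, against 37.1% of all tested genes. The median log2 difference between the forms was -0.50, but set against the wild-type rescue mean it stood at 0.03 in TAFH-deleted clone 1 and at -0.93 in clone 2. Without clone 1, 34 of the 43 were called, 31 lower and 3 higher, against 55.9% of all tested genes. Without clone 2, 11 were called, 7 lower (Gbp2, Gbp3, Lgals3bp, Lgals9, Oas1a, Samd9l and Zbp1) and 4 higher (Eif2ak2, Ifitm2, Ifitm3 and Irgm1), against 40%. Each of these fits takes the lone TAFH-deleted clone to vary like the wild-type rescue clones.

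TAFH-deleted rescue against control gave a median of -0.00, with 21 of the 43 higher and 22 lower. Of all 12025 tested genes 5818 were higher, with a median of -0.01. The median of the 43 joins unlike clones, at 0.23 in clone 1 and -0.59 in clone 2. limma called 0 of the 43, against 67 calls among all tested genes (0.557%). An unadjusted p under 0.05 was found for 3 of the 43 and 1497 of all tested genes. The lowest of the named genes were Lgals3bp (-1.77 ± 0.56, SE, adjusted p = 0.338 in limma), Lgals9 (-1.46 ± 0.80, adjusted p = 0.547) and Gbp2 (-1.33 ± 0.74, adjusted p = 0.552). The highest were Ifih1 (0.90 ± 0.17, adjusted p = 0.165), Usp18 (0.82 ± 0.58, adjusted p = 0.64) and Rtp4 (0.50 ± 0.43, adjusted p = 0.7). Ifih1 lay above control in both TAFH-deleted clones, both wild-type rescue clones and knockout. The comparisons above share samples, so their values are set side by side and are not independent of each other.

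Genes with an ISRE core in the promoter window, 17 of those tested, had a median log2 difference of 0.61 in knockout against control, with 16 higher and 1 lower. The 16 tested genes with a window but no core had a median of 0.46, with 12 higher and 4 lower. Against knockout, TAFH-deleted clone 2 had medians of -1.36 with a core and -0.85 without, and clone 1 had -0.25 and -0.23. Lgals9, with 2 cores in the stretch printed above, was lower in knockout than in control, while Ifitm1, with none, was among the highest. These shares were not tested.

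Of 38 pathway genes in the table that are not among the 50, 28 were tested, and limma called 0 of them in each of the 6 comparisons. Of all tested genes it called 2.62% in TAFH-deleted against wild-type rescue, 0.557% in TAFH-deleted rescue against control and 0% in the others. In knockout 21 of the 28 pathway genes were higher than in control and 7 were lower, against 45.1% of all tested genes that were higher. Their median was 0.15, against -0.03 over all tested genes. None of the 7 interferon ligand genes reached 1 FPKM, and 6 of them were at 0 in every library. As the values of Gapdh show, a low value in this table does not establish that a transcript was absent. Ifnb1, which encodes interferon beta, was at 0.102 FPKM in control, a level of about 1 fragment in each library, and at 0 in all other samples. Ifngr2, a chain of the interferon gamma receptor, was at 57.7 and 25.9 FPKM in TAFH-deleted clones, 51.0 and 51.1 FPKM in wild-type rescue clones, 50.7 FPKM in knockout and 40.6 FPKM in control. TAFH-deleted clone 2 was the lowest sample for Ifngr2. Socs3, an inhibitor of JAK kinases, was at 25.5 and 19.95 FPKM in TAFH-deleted clones, 41.6 and 45.2 FPKM in wild-type rescue clones, 45.8 FPKM in knockout and 31.6 FPKM in control. Socs1, its relative, was at 17.8 and 13.7 FPKM in TAFH-deleted clones, 25.5 and 23.9 FPKM in wild-type rescue clones, 17.8 FPKM in knockout and 16.1 FPKM in control. The inhibitors thus differed in order, with knockout among the highest for Socs3 and near control for Socs1.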

How the data were processed

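The authors deposited FPKM for 30028 RefSeq transcripts in 8 libraries on mm9, their group averages, and Cuffdiff p-values and q-values. CASAVA 1.8, TopHat, Cufflinks and Cuffdiff were used per the submitters' processing notes, with other versions and options not given in the sources used here. The length of each transcript stands in the table per the file headers.

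The 50 genes, their role groups and the other gene lists were chosen with earlier results of these data known. FPKM were summed per gene. In 12350 genes with a single transcript, 100% of low values were whole multiples of 1 fragment within a tolerance of 0.05 once 204.1 bases were taken from the length, which gave depth and the chi-square over genes with 2 to 7 fragments in each pair of libraries. Intervals and errors cover these libraries only.

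limma 3.58.1 (R 4.3.3) was fitted with an intensity trend to log2(FPKM + 1), which understates changes of low genes. The fit had 6 samples, with 2 residual and 2.15 prior degrees of freedom, over 12025 genes that reached 1 FPKM in 2 or more libraries and had a longest transcript of at least 300 bases. Tests were two-sided in 6 comparisons, with Benjamini-Hochberg adjustment at 0.05. The procedure was tested on simulated data. Genes are named with values where a group mean reached 5 FPKM or a comparison called them, and with fold and test where among the 3 largest differences each way. Alternatives were another pseudocount, no filter, quantile normalization, all libraries separate, a replicate block and each library left out. Promoter sequences are from RefSeq on GRCm38.p6. The pathway gene Mb21d1 was not analysed here. Results for a withheld item are not reported here.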

Additional observations from a re-analysis of the deposited data

Results flagged for a closer look

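In 4 named genes both clones of 1 rescue form lay above knockout and both clones of the other form below it. The difference between the forms was tested with limma and did not pass in any of them. The share of all tested genes with this pattern was not counted, so whether 4 is unusual is not known. Separation of the forms was common: both TAFH-deleted clones lay below both wild-type rescue clones in 26.4% of all tested genes and above in 37.1%. Samd9l, Gbp2 and Lgals3bp were above knockout in wild-type rescue and below it in TAFH-deleted rescue. The log2 difference of TAFH-deleted against wild-type rescue was -1.11 ± 0.26 (SE, adjusted p = 0.0922 in limma) for Samd9l. It was -2.16 ± 0.61 (adjusted p = 0.118 in limma) for Gbp2 and -2.20 ± 0.45 (adjusted p = 0.0801 in limma) for Lgals3bp. Ifit2 lay the other way, above knockout in TAFH-deleted rescue and below it in wild-type rescue, with a difference of 0.28 ± 0.11 (adjusted p = 0.186 in limma). Its level in wild-type rescue clone 2, 19.1 FPKM, lay between those of the knockout libraries, 19.0 and 19.5 FPKM. Gbp3, which is not among the genes named by the rule, had the pattern of Gbp2 and was noticed after its values were seen.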

How the results depend on the processing

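The medians of the 43 genes kept their sign under another pseudocount, no filter and quantile normalization in the comparisons with a median over 0.1, and wild-type rescue against control had 0.64 under quantile normalization, against 0.43. Counting all 8 libraries separately, limma called 9 of the genes in knockout against control, 4 in wild-type rescue against knockout, 4 in TAFH-deleted rescue against knockout, 11 in TAFH-deleted against wild-type rescue, 4 in wild-type rescue against control and 4 in TAFH-deleted rescue against control. Of all 12025 tested genes that fit called 4566 in TAFH-deleted against wild-type rescue and between 1074 and 2998 in the others. Replicate numbers did not pair the samples (correlations of deviations between -0.0776 and 0.0571). With a replicate block the counts among the 43, in the same order of comparisons, were 8, 5, 3, 12, 4 and 3. Of all tested genes the block fit called 3921 in TAFH-deleted against wild-type rescue and between 461 and 2232 in the others. The Zbp1 call was lost with a pseudocount of 0.1 (adjusted p = 0.0618 in limma), with no filter (0.0845) and with quantile normalization (0.081), which left 0 calls in each, and the cause was not tested. With each library left out in turn, calls ranged from 0 to 22 in knockout against control, 0 to 8 in wild-type rescue against knockout, 0 to 34 in TAFH-deleted rescue against knockout, 0 to 34 in TAFH-deleted against wild-type rescue, 0 to 13 in wild-type rescue against control and 0 to 16 in TAFH-deleted rescue against control. The upper ends came from fits without TAFH-deleted clone 1, or clone 2 in wild-type rescue against knockout, and the same fits called 2712, 3201, 4013, 6722, 2953 and 3085 of all 12025 tested genes in the same order. Medians then ranged from 0.59 to 0.61, -0.43 to -0.20, -1.13 to -0.23, -0.93 to 0.03, 0.27 to 0.51 and -0.59 to 0.23 in the same order, the ends of the third, the fourth and the last coming from TAFH-deleted clone 1 or 2 left out. Irgm1 in TAFH-deleted rescue against knockout, at 0.02, was -0.026 under quantile normalization and between -0.025 and 0.0603 with a library left out. Over all tested genes, TAFH-deleted against wild-type rescue had 315 calls, against 142 with a pseudocount of 0.1, 0 with no filter, 175 with quantile normalization, 4566 with libraries separate and 3921 with the block. The other comparisons had 0 calls, or 67 in TAFH-deleted rescue against control, and between 1074 and 2998 with libraries separate and between 461 and 2232 with the block. With no filter, calls were 213 in knockout against control, 264 in wild-type rescue against control and 380 in TAFH-deleted rescue against control, which had 0 with a pseudocount of 0.1 and 16 with quantile normalization. In medians over genes with under 20% of read starts in use, or with a single transcript, alternatives chosen after seeing the data, knockout against control had 0.73 and 0.58 and TAFH-deleted rescue against knockout -0.77 and -0.69. Depth limits genes under about 1 FPKM, and short transcripts such as that of Ifi27l2a at somewhat higher values.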
